A study of Rattus norvegicus with 8 samples.

Results

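The interleukin-1 system was examined in skin of Long-Evans rat pups through 5 genes, the ligands Il1b and Il1a, the receptor antagonist Il1rn, the signalling receptor Il1r1 and the decoy receptor Il1r2. They were chosen by Ensembl gene ID, as 5 of 19752 such IDs printed on the array, and every probe that carries one of them was taken, 11 of 38948 probes. The symbols came with that choice of IDs and could not be checked against the files or the gene table used here. Skin was collected from 4 wounded samples, which had received a 3-mm incision in the back 3 days after birth and sampled 36 h after the cut. The 4 control samples were skin of unwounded pups from the same body site, and their age was not stated separately. No sample received chemotherapy, although the study's title concerns hair loss under it. Nothing in the labels says that each sample came from a different animal, so the spread that the p-values rest on may be technical.

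Interleukin-1β and interleukin-1α are alarm cytokines that bind the same receptor, Il1r1, which with its accessory chain switches on inflammatory genes. Interleukin-1α is stored by keratinocytes and released when they are damaged, while interleukin-1β is made mainly by activated myeloid cells as a precursor that must be cleaved before it is active. The antagonist encoded by Il1rn occupies the receptor without signalling, and Il1r2 binds the ligands but lacks the inner domain needed to signal. The arrays measured RNA, so cleavage, release and receptor binding were not seen. In whole skin, a change in the number of cells of a type and a change in RNA per cell cannot be told apart.

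All 5 genes rose, and the sequences just upstream of 3 of them, the ligands and the antagonist, are shown. They are the 250 bases before the RefSeq start on GRCr8, 5′ to 3′ on the gene's strand, and capitals mark matches to any of 3 motifs searched on both strands. The TATA element was taken as TATAAA. The AP-1 element was taken as TGANTCA, where N is any base. A loose κB element was taken as GGGNNNNNCC. No matches of different motifs overlapped. Il1b lies on the minus strand, chr3:137036582-137036831. Il1a is also on the minus strand, chr3:136990018-136990267. Il1rn is on the plus strand, chr3:27520072-27520321.
Il1b: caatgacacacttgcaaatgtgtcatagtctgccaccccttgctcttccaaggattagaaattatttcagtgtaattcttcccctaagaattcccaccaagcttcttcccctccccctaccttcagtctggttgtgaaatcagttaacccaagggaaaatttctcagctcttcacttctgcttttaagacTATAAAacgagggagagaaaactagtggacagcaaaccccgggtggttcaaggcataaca
Il1a: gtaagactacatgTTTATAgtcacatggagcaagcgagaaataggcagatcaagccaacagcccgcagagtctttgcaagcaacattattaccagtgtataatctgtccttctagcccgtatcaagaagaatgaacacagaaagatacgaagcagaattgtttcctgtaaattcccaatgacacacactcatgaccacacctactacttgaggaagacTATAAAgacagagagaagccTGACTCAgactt
Il1rn: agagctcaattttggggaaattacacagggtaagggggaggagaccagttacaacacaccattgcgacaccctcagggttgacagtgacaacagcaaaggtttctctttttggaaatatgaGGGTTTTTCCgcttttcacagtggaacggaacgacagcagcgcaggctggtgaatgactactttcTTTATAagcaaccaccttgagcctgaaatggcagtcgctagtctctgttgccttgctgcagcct

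The TATAAA match of Il1b begins at -60 and that of Il1a at -32, with -1 the base before the start. Il1a holds another match at -237 and Il1rn has its match at -64, both on the opposite strand. The stretch of Il1r1 holds none. Of 33469 RefSeq promoters cut to the same length, 12.9% hold TATAAA on either strand. The AP-1 letters occur in Il1a at -12 and in 6.34% of promoters. The loose κB letters occur in Il1rn at -129 and in Il1r1 at -135 on the opposite strand, and 42.3% of promoters hold them. A match is only a run of letters. Promoters of 4 of the 5 genes were matched by symbol.

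All 5 genes were higher in wounded skin. Il1b rose 15.5-fold, Il1rn 5.36-fold, Il1r1 4.77-fold, Il1r2 4.60-fold and Il1a 1.96-fold, each by the brightest of its probes that were tested. The median log2 change of the 5 was 2.25, against -0.05 over all 12769 features tested, where a feature is an Ensembl ID or a probe without one. Called higher were 5 of the 5 genes and 8.01% of all features (limma, Benjamini-Hochberg adjusted p under 0.05). Of all features 1023 were called higher and 1232 lower, or 960 and 761 with median scaling. A rise of at least 4-fold was called for 4 of the 5 genes and for 1.07% of features. Signals are log2 intensities after background correction with an offset of 50, which pulls the changes of dim probes toward 0, so these folds are lower than those from background-subtracted signal given beside them below.

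**Figure D1:**
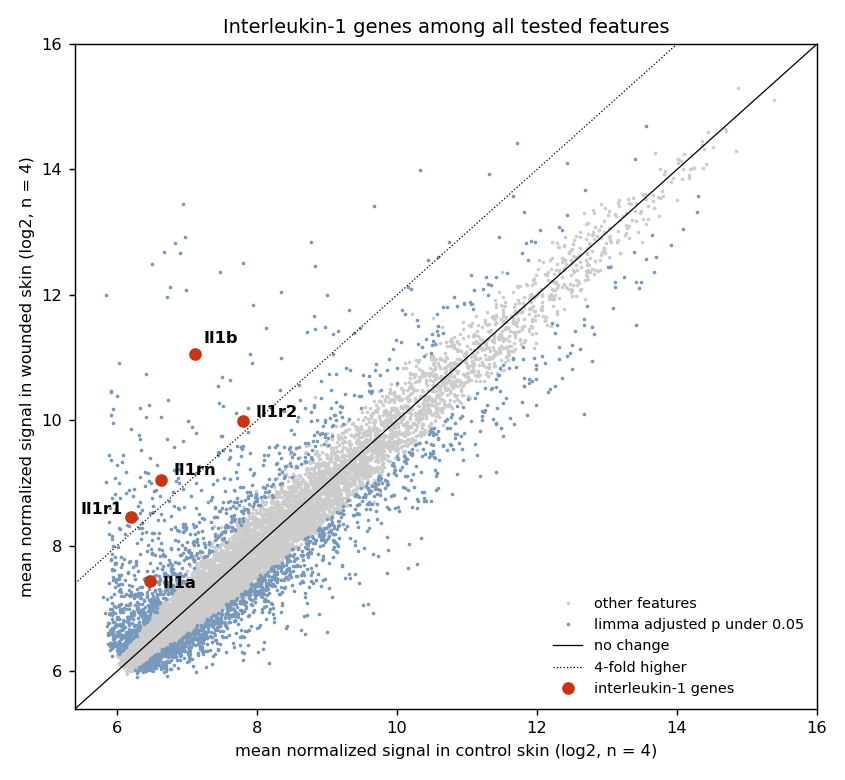
Mean log2 signal of each of 12769 features in 4 control samples (horizontal axis) and 4 wounded samples (vertical axis), with features past the limma threshold in blue and the 5 interleukin-1 genes in red. Il1b stands at 7.11 and 11.06, and Il1a, at 6.47 and 7.44, lies below the line of 4-fold higher signal.

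Il1b, the ligand named in the study's title, had 2 probes, and both were found by the scanner software on all 8 arrays. Its brighter probe, R001188_01, gave log2 signals of 7.003, 7.24, 6.98 and 7.21 in controls 1 to 4 and 11.35, 10.66, 11.32 and 10.92 in wounded samples 1 to 4. The groups were separated by more than 3 log2 units, with wounded 2 the lowest of its group. Before any normalization the spot stood 63 to 106 intensity units above its local background in controls and 1782 to 2942 units in wounded samples. The means were 7.11 ± 0.14 (SD, n = 4) and 11.06 ± 0.33 (SD, n = 4), a log2 change of 3.95 ± 0.21 (SE, limma adjusted p = 1.30e-10). With the local background subtracted the rise was 25.8-fold. It was the 22nd largest rise of the 12769 features with the offset, and the 71st with background subtracted.

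The dimmer Il1b probe, ENSRNOG00000004649, gave 6.59, 6.70, 6.94 and 7.03 in controls and 10.33, 9.61, 10.37 and 9.19 in wounded samples. Its log2 change was 3.06 ± 0.25 (SE, limma adjusted p = 7.78e-08 in the fit over 19444 probes). Both probes thus placed every wounded sample above every control. They differed in wounded 4, where the brighter probe exceeded the dimmer by 1.73 on the log2 scale, against 0.95 to 1.04 in the other wounded samples.

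Il1a, the ligand held ready in keratinocytes, had 3 probes, and all were dim. Probe ENSRNOG00000004575 gave 6.44, 6.51, 6.51 and 6.43 in controls and 7.96, 7.23, 7.89 and 6.69 in wounded samples. Wounded 4 lay only 0.18 above the highest control, while the other 3 wounded samples were well clear. The means were 6.47 ± 0.05 (SD, n = 4) and 7.44 ± 0.60 (SD, n = 4), a log2 change of 0.97 ± 0.22 (SE, limma adjusted p = 0.00378). Background subtraction moved this to 1.79, or 3.46-fold (limma adjusted p = 0.00393).

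The other Il1a probes had their highest or second highest wounded value in wounded 4. Probe R002400_01 lay between 6.19 and 6.51 in controls and between 7.20 and 7.77 in wounded samples, a log2 change of 1.12 ± 0.16 (SE). Probe Rn30004092 lay between 5.95 and 6.42 in controls and between 6.86 and 7.47 in wounded samples, a log2 change of 0.94 ± 0.15 (SE). Their limma adjusted p-values over all probes were 6.30e-05 and 0.000159. The 3 probes were found on 3, 2 and 1 of 4 control arrays, so control levels of Il1a were near the limit of the array. With background subtracted, R002400_01 changed by 2.27 on the log2 scale, or 4.81-fold, and Rn30004092 by 2.71, or 6.56-fold.

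Il1rn, the antagonist, was measured by 1 of its 2 probes. Probe ENSRNOG00000005871 was found on all 8 arrays and gave 6.58, 6.46, 6.66 and 6.78 in controls. In wounded samples it gave 9.14, 8.60, 8.89 and 9.54, so the lowest wounded value was 1.82 above the highest control and wounded 4 was the highest. The means were 6.62 ± 0.13 (SD, n = 4) and 9.04 ± 0.40 (SD, n = 4), a log2 change of 2.42 ± 0.21 (SE, limma adjusted p = 1.16e-07). The rise was 11.4-fold with background subtracted. The other probe, R003599_01, was found on 0 of 8 arrays, with signals of 5.79 to 5.91 throughout, and has no fold.

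Il1r1, the receptor through which both ligands signal, also rested on 1 probe. Probe ENSRNOG00000014504 was found on 2 of 4 control and 4 of 4 wounded arrays, with 6.11, 6.13, 6.33 and 6.21 in controls and 9.01, 8.43, 8.72 and 7.65 in wounded samples. Every wounded sample exceeded every control by at least 1.31, and wounded 4 was again the lowest of its group. The means were 6.20 ± 0.10 (SD, n = 4) and 8.45 ± 0.59 (SD, n = 4), a log2 change of 2.25 ± 0.23 (SE, limma adjusted p = 1.05e-06). The background treatment mattered most here, since subtraction gave 4.15, or 17.7-fold, from control spots only 11 to 23 units above background.

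The second Il1r1 probe, R001103_01, lay near background on all arrays and was found on 0 control arrays and 1 wounded array. Its spots stood -2 to 10 units above background in controls and 7 to 14 in wounded samples, so the groups overlapped before normalization. The normalized log2 signals were 5.77 to 6.01 in controls and 6.04 to 6.11 in wounded samples, all 4 of them above every control. Fitted without the filter on dim probes, it changed by 0.18 ± 0.06 (SE) and did not pass the threshold (limma adjusted p = 0.0920 over 38948 probes, of which 4.44% were called higher). With background subtracted, and spots under 1 unit set to 1, its log2 change was 2.04, or 4.11-fold, so at this signal the size of any change was not settled. No probe sequences were used here to tell the probes apart, so the Il1r1 value stands for 1 oligonucleotide.

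Il1r2, the decoy receptor, had 2 probes found on all 8 arrays. The brighter, R001881_01, gave 7.83, 7.86, 7.84 and 7.65 in controls and 10.36, 9.64, 10.36 and 9.62 in wounded samples. The groups were apart by 1.76, with wounded 2 and wounded 4 the lower pair. The means were 7.79 ± 0.10 (SD, n = 4) and 9.996 ± 0.42 (SD, n = 4), a log2 change of 2.20 ± 0.22 (SE, limma adjusted p = 7.02e-07), or 5.84-fold with background subtracted. The dimmer, ENSRNOG00000014378, lay between 6.72 and 6.94 in controls and gave 8.99, 8.59, 8.68 and 7.33 in wounded samples, a log2 change of 1.56 ± 0.27 (SE, limma adjusted p = 0.000432).

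**Figure D2:**
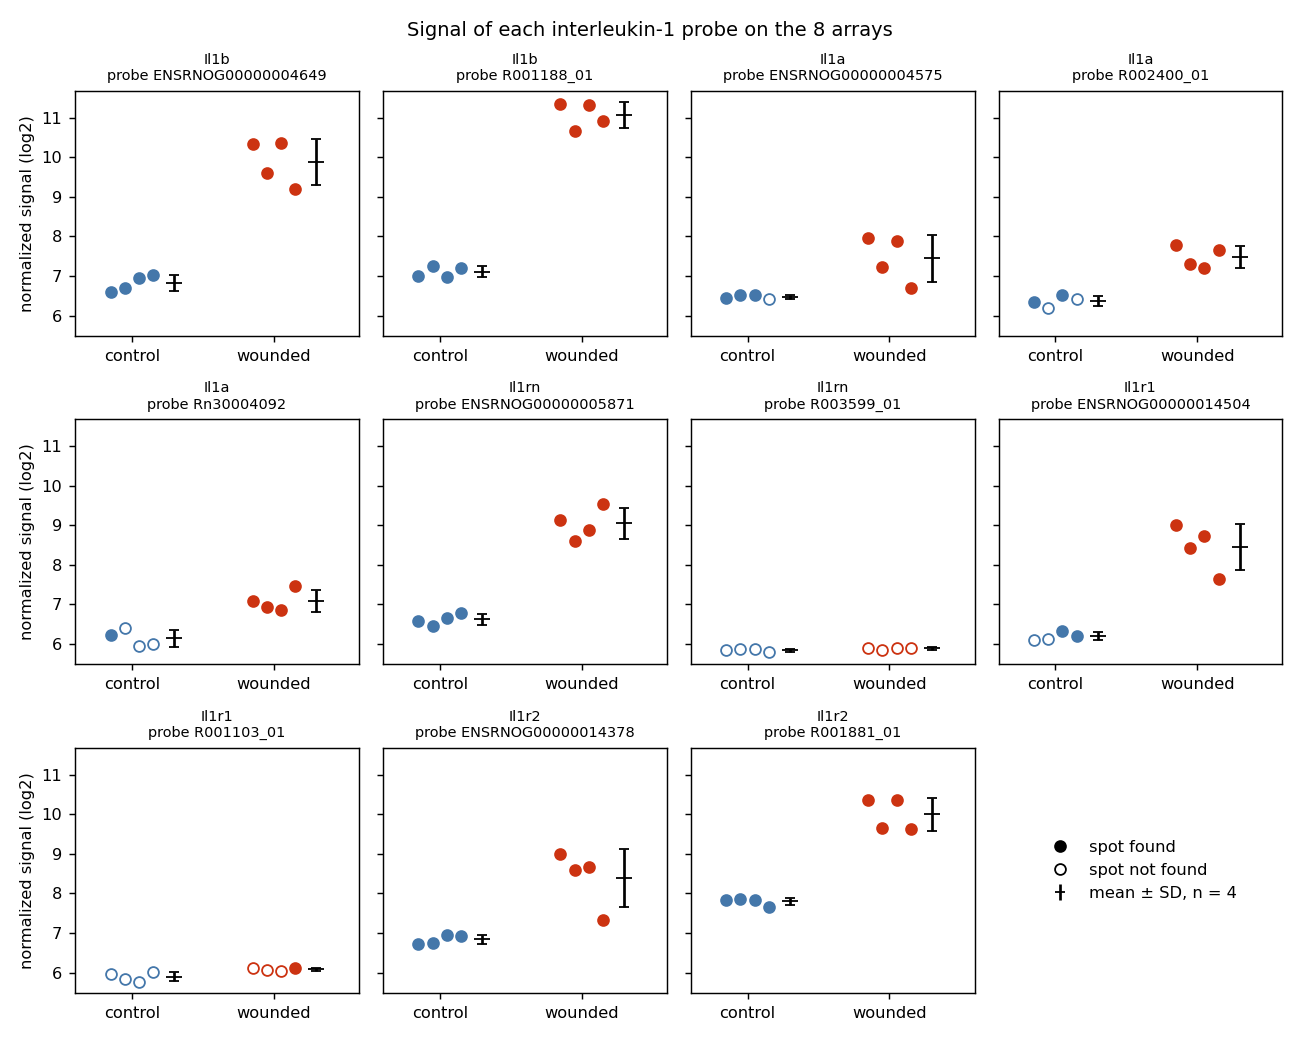
Log2 signal of each of the 11 probes in every sample, controls in blue and wounded samples in red, with open circles where the spot was not found and bars for the mean ± SD of 4 samples. The 9 probes that were tested show no overlap between the groups. R003599_01 of Il1rn and R001103_01 of Il1r1, which were not tested, stay below 6.2 on all arrays, and of them only R003599_01 overlaps.

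A probe was tested if it was found on at least 4 of the 8 arrays, which 9 of the 11 probes were. Among the 9 tested, 9 were called higher and 9 had all wounded values above all control values. Over all 19444 tested probes these shares were 8.09% and 9%. Being found on the 4 wounded arrays was enough to pass, so these counts are not independent of a rise. Under the stricter demand of being found on all 8 arrays, 5 probes of Il1b, Il1rn and Il1r2 remained, and all 5 were called higher. By gene this was 3 of 3, against 625 of the 9582 features that passed the same demand.

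The sizes of the rises were compared within arrays, since levels of different probes cannot be set against each other. Changes depend on the probe too, with 3.95 and 3.06 for the probes of Il1b and 2.20 and 1.56 for those of Il1r2. Each comparison therefore holds for the brightest tested probe of each gene. For each of 4 pairs, fixed among the 5 genes, the difference of log2 signals was compared between groups with a 2-sided exact permutation test, whose smallest p at 4 against 4 is 0.0286. Il1b rose more than its antagonist Il1rn by 1.53 ± 0.25 (SE, exact permutation p = 0.0286, 0.0381 after adjustment over the 4 pairs). The difference was 1.38 to 2.42 in wounded samples and 0.32 to 0.78 in controls. That call was lost with plain background subtraction, at 1.17 (exact permutation p = 0.0571, adjusted 0.0571), and without control 3, at 1.47 (exact permutation p = 0.0571, adjusted 0.0762). The size and the separation of the groups depended on the Il1b probe as well. The dimmer Il1b probe changed by 3.06, against 2.42 for Il1rn. In wounded 4 it read 9.19, below the 9.54 of Il1rn, while in every control it read above Il1rn. With that probe the difference in wounded 4 thus lay below all controls, and in the other wounded samples above them. The dimmer probe alone was not tested against Il1rn. With the mean of each gene's tested probes, which takes in both Il1b probes, Il1b rose more than Il1rn by 1.08 (exact permutation p = 0.0286, adjusted 0.0286).

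Il1a rose less than Il1rn by a log2 difference of -1.45 ± 0.43 (SE, exact permutation p = 0.0286, adjusted 0.0381). Il1b rose more than Il1a by 2.98 ± 0.22 (SE), with the same p-values. Both calls held with background subtracted, at -1.72 and 2.89, but not after adjustment without control 3, where the values were -1.45 and 2.92 (exact permutation p = 0.0286, adjusted 0.0571). This Il1a probe was low in wounded 4, which enlarged both differences. Without wounded 4 they were -1.04 and 2.78. With each spot shifted by its neighbours, as described below, they were -1.19 and 2.68. All of these stayed called after adjustment. The ligands thus differed from each other in the size of their rise, with the antagonist between them on the reported scale for these probes.

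The receptors gave no settled order. With the offset of 50, Il1r2 and Il1r1 differed in their change by -0.05 ± 0.18 (SE, exact permutation p = 0.8). With background subtracted Il1r1 rose more, by a difference of -1.60 ± 0.32 (SE, exact permutation p = 0.0286), and the authors' values gave -1.495.

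**Figure D3:**
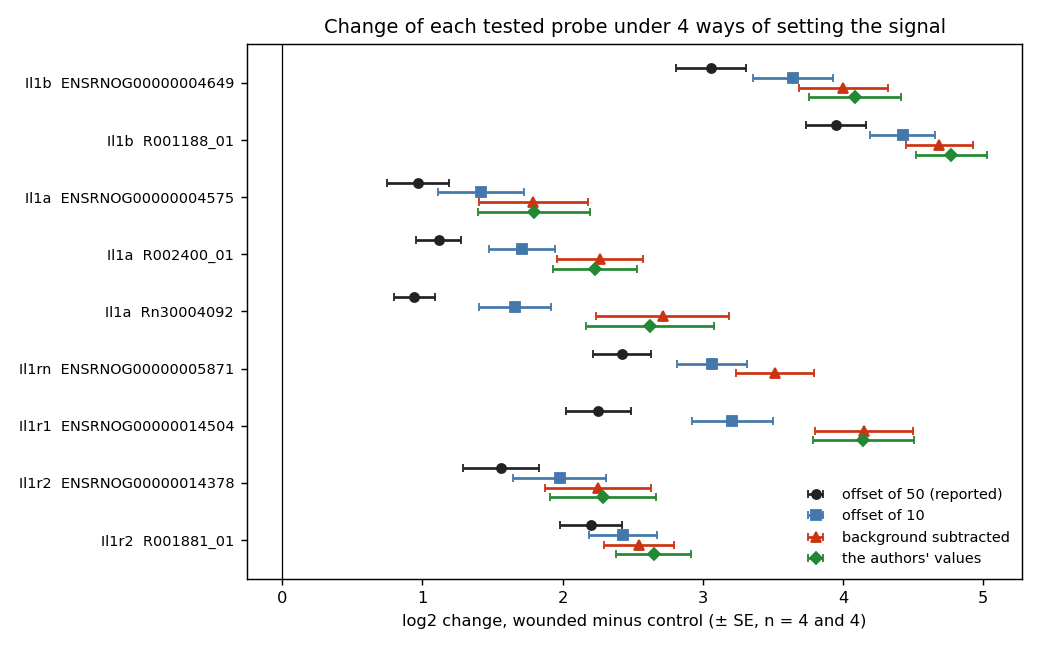
Log2 change, wounded minus control, of the 9 tested probes with its SE, for an offset of 50, an offset of 10, local background subtracted and the authors' values, which hold no Il1rn probe. All points lie above 0, and the spread between settings is wide for dim probes, from 2.25 to 4.15 for Il1r1, and narrow for the bright R001881_01 of Il1r2, from 2.20 to 2.65.

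Position on the array moved with part of the spread among wounded samples. Of the 9 tested probes, 4 (1 each of Il1b, Il1a, Il1r1 and Il1r2) were printed in column 1 and row 24 of print blocks 35, 31, 39 and 43. In wounded 4 these probes lay 0.68 to 1.07 below the mean of their group on the log2 scale. The 86 other found spots within 4 rows and 4 columns of them had a median of -0.24 in the same array, and 94.2% were below their group mean. In wounded 1 to 3 the neighbours' medians were 0.06 to 0.14. The 5 tested probes printed elsewhere lay between 0.37 below and 0.50 above their group mean in wounded 4, with neighbours' medians of 0.08 to 0.21.

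**Figure D4:**
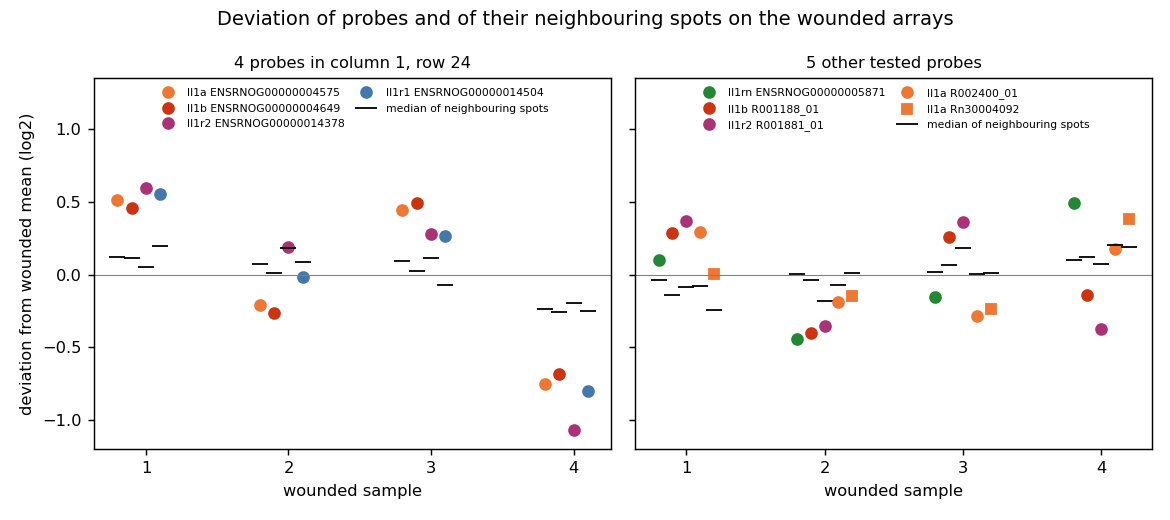
Deviation from the mean of the wounded samples, in log2 units, of the 4 probes printed in column 1, row 24 (left) and the 5 other tested probes (right) on each wounded array, with a black bar for the median of the found spots around each. On wounded 4 the left probes lie at -0.68 to -1.07 and their neighbours near -0.24.

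Wounded 4 was also the array with the widest range of print block medians, 0.81, against 0.39 to 0.68 on the other 7 arrays. Shifting each spot by the median difference of its neighbours, an alternative added after the data were seen, gave log2 changes of 3.87 for Il1b, 1.20 for Il1a, 2.39 for Il1rn, 2.61 for Il1r1 and 2.06 for Il1r2, all called. The same alternative called 1479 of the 12769 features higher. Under it the receptors differed by -0.55 (exact permutation p = 0.0286), Il1r1 rising more. The neighbours' shift was smaller than that of the probes themselves, and how much of the low values of wounded 4 goes with position was not tested further.

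Control 1 and wounded 4 are also the 2 arrays whose numbers in the labels lie outside the run of the other 6, and their deviations from group means correlated at 0.40 across features, against at most 0.15 for any other control and wounded pair. Without both, the log2 changes were 3.96 for Il1b, 1.21 for Il1a, 2.24 for Il1rn, 2.50 for Il1r1 and 2.34 for Il1r2, and all 5 were called (limma adjusted p at most 0.00107). In that fit 949 of the 12769 features were called higher. The share of probes found ranged from 43.5% to 51.4% over the arrays. All arrays were scanned on 1 day, controls before wounded samples, so scan order and wounding cannot be told apart.

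Across the 8 arrays, the other 4 genes followed Il1b with a Pearson r of 0.84 for Il1a to 0.99 for Il1r2, as a description in which the difference between the groups dominates. The features most like Il1b were ENSRNOG00000008525, with r = 0.999 and a log2 change of 3.87, and ENSRNOG00000002792, with r = 0.998 and a change of 6.16. Among all features other than Il1b, the other interleukin-1 genes included, 518 had an r of at least 0.9. The array's IDs are not paired with symbols here, so the pathway's other genes and markers of skin, myeloid and other cell types could not be identified, and the labelled tissue and the cells behind these rises were not checked against markers.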

How the data were processed

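Biotin-labelled cRNA made from total RNA was put on Rat MI-Ready arrays, per the labels. A GenePix 4000B scanner (635 nm) and GenePix Pro 4.1.1.4 gave the spot values, with no normalization, per the file headers. Intensity per spot and its local background are on a linear scale in the deposited files. The authors' deposited log2 table has 16198 rows, of which 16079 match a probe. On each array 99.9% to 100% of the 16027 to 16056 spots compared, those above background, lay within 0.011 of log2 of median foreground minus background plus a constant for that array. It holds 8 of the 11 probes, none of Il1rn, and served as an alternative.

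Median pixels were corrected with normexp (offset 50) and quantile normalized in limma 3.58.1 (R 4.3.3). Of 40320 spots, 1240 controls and blanks and 65 spots marked bad (over all arrays) were left out. Probes found on at least 4 of 8 arrays were kept, 19444 of 38948, and the brightest probe stood for each Ensembl ID. Wounded and control samples were compared with limma (variance trend, 2-sided), adjusted over all features. The method was tested on simulated data with independent noise for each feature, so shifts by array or position were not covered. The number of arrays limits the precision.

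The members and lists were chosen with earlier results of these data known. Symbols of the 5 IDs came with that choice: 0 of 47357 rows of the GRCr8 gene table carry an Ensembl ID, so the pairing was not checked and the pathway and marker lists were not used. Named were all probes of the 5 genes and the 2 features most correlated with Il1b among those with an Ensembl ID outside the 5. Alternatives covered background, foreground, normalization, filter, probe choice, variance model, array weights, blocks, position and left-out samples.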

Additional observations from a re-analysis of the deposited data

Results flagged for a closer look

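Of 22 sets of 4 values (11 probes in each group), 2 held a value far from the other 3 by Dixon's criterion, and chance sets apart about 1 in 20. The log2 signal of the brighter Il1r2 probe, R001881_01, was 7.65 in control 4, against 7.83 to 7.86 in the other controls, a gap far smaller than its rise. The Il1rn probe R003599_01 read 5.84 in wounded 2, while the rest of its group lay at 5.90 to 5.91, and it was found on no array.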

How the results depend on the processing

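Of 531 values recomputed over 25 alternatives, 513 had the same direction and verdict or stayed within 1.5 times the count reported. Each gene kept its rise and its call in every alternative that tested it, with log2 changes of 3.51 to 4.77 for Il1b, 0.80 to 1.80 for Il1a, 2.24 to 3.51 for Il1rn, 2.07 to 4.15 for Il1r1 and 1.88 to 2.65 for Il1r2 (largest limma adjusted p 0.0223, for Il1a). With probes found on all 8 arrays, fewer were tested: 3 genes, 5 probes and 1 pair were called, and 625 of 9582 features were higher. Median scaling gave 761 lower, and the cause was not tested. The order of the receptors' rises was the least settled value. The difference, Il1r2 minus Il1r1, was 0.014 with median scaling (exact permutation p = 0.914). It was -0.37 with the mean of each gene's probes and -0.26 with print blocks centred, both called (exact permutation p = 0.0286, adjusted 0.0286). Leaving out 1 sample gave -0.197 to 0.058 (above 0 without wounded 1 or wounded 2), with exact permutation p-values of at least 0.2. With 1 sample left out, 3 of the 4 pairs were called, but 0 without control 3, where 2 had an unadjusted p of 0.0286. A replicate block of the sample numbers left all 5 genes called (Il1b 3.95, limma adjusted p = 4.65e-11), with 987 of 12769 features called higher. Deviations of samples with the same number correlated at -0.28 to -0.01, so the numbers were not taken as pairs. Dim probes of Il1a and Il1r1 limit the precision of their folds.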
